A study of Homo sapiens with 6 samples.

Results

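The conjugation enzymes described here are the UDP-glucuronosyltransferases (UGT), the sulfotransferases (SULT), the cytosolic glutathione S-transferases (GST) and the microsomal glutathione S-transferases (MGST). The families were picked with earlier results of these data known, and their members were then taken by a rule on gene symbols, with pseudogenes left out, which gave 44 of the 34234 genes in the count table. Because 9 of the 44 are UGT1A genes that are built on common exons, the UGT1A locus was counted once, which left 36 measurements, and 25 of these had enough reads to be tested. RNA was sequenced in HCCLM3 cells, a human hepatocellular carcinoma line of high metastatic potential, after lentivirus had brought in either a control hairpin (shcontrol, 3 libraries) or 1 against ATXN7L3 (shATXN7L3, 3 libraries). In both groups the virus-containing medium was exchanged after 16 hours, and the time from there to harvest is not given in the sources used here. ATXN7L3 encodes an adaptor of the histone H2B deubiquitinase module of the coactivator complex SAGA. Whether the replicates were separate cultures is not stated, so every p-value refers to the spread among these 6 libraries alone, and that spread may be technical.

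Conjugation makes drugs, hormones, bilirubin and reactive metabolites more soluble so that bile or urine can carry them away, and the hepatocyte is its main site in the body. A UGT transfers glucuronic acid from UDP-glucuronic acid in the endoplasmic reticulum, a SULT transfers sulfate from the donor PAPS in the cytosol, and a GST joins glutathione to electrophiles. The UGT1A locus is unusual. Each of its genes has a first exon and a promoter of its own, and the transcripts are spliced to common downstream exons. The first exon sets the substrate range, and the common exons encode the part that binds the sugar donor. As annotated here, UGT1A1, UGT1A4, UGT1A6 and UGT1A10 also have an alternative downstream exon.

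The ends of the UGT1A first exons are printed here because they show which reads can be told apart. Each line gives, from the GENCODE 29 transcripts (GRCh38, chromosome 2, plus strand), the last 24 bases of a first exon in lower case and the first 24 bases of the common exon 2 (233767034 to 233767165) in capitals.
UGT1A8: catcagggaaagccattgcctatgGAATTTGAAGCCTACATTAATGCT
UGT1A10: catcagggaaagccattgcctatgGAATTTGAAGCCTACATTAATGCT
UGT1A9: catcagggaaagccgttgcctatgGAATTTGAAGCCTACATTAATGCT
UGT1A7: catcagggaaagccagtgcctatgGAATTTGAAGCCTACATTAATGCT
UGT1A6: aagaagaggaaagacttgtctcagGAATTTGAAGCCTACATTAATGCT
UGT1A5: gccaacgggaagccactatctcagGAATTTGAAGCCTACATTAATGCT
UGT1A4: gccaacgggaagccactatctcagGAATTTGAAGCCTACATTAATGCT
UGT1A3: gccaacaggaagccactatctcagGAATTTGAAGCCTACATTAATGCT
UGT1A1: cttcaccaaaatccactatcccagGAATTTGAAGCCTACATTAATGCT
From the capitals on, all 9 lines are the same, and a read that lies there belongs to no particular gene. The first exons fall into families. Over their full length those of UGT1A8 and UGT1A10 were 93.8% identical and had 15.4% and 15.3% of their 50-base windows in common, whereas the first exon of UGT1A1 was 52.3% to 62.3% identical to the other 8 and had no 50-base window in common with any of them. Reads of the first exon of UGT1A1 can therefore be placed more surely than those of the first exons of UGT1A8 or UGT1A10.

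The 6 libraries held 22376867 to 23915783 counts. ATXN7L3 stood at 36.4, 37.5 and 37.5 CPM (counts per 1e6 counts, scaled by TMM factors) in shcontrol and at 20.6, 20.5 and 19.5 CPM in shATXN7L3, which left 54.5% of its control level (edgeR adjusted p = 6.69e-10). Among 17935 tested genes 24.2% passed an adjusted p of 0.05 (edgeR quasi-likelihood test, Benjamini-Hochberg adjustment), 12.2% higher and 12.0% lower in shATXN7L3, and these shares are the background for every count below. The calls numbered 2182 higher and 2150 lower, and 2955 and 1604 when only library size was used for scaling, which shifted the median of all genes by 0.043 on the log2 scale. Of 10 hepatocyte and hepatoma markers 9 were tested and all 9 were lower in shATXN7L3, and their summed level ran from 2120 to 2260 CPM in shcontrol and from 1710 to 1850 CPM in shATXN7L3. Most of that sum was KRT8 (1652 ± 94.9 and 1480 ± 78.9 CPM), and the liver-specific markers were lower by more: TF stood at 206 ± 20.2 and 35.9 ± 0.913 CPM, ALB at 65.2 ± 1.69 and 24.1 ± 1.15 CPM, and SERPINA1 at 18.6 ± 1.88 and 5.34 ± 0.675 CPM. The plasma protein genes APOA1 (2 to 12 reads per library) and TTR (3 to 20 reads) were close to absent. HNF4A is in this list and in that of the regulators below. Of 6 leukocyte markers 3 were tested, CD68 rose and LYZ fell, and their sum ran from 91.3 to 111 CPM in shcontrol and from 121 to 127 CPM in shATXN7L3, nearly all of it CD68, with PTPRC at 2 to 7 reads. Of 6 endothelial markers 3 were tested, ESAM rose and PECAM1 fell, and the sum ran from 75.7 to 82.2 and from 73.0 to 75.1 CPM, with CDH5 at 0 to 2 reads. Of 6 fibroblast and stellate cell markers 2 were tested and LUM fell, and the sum ran from 27.1 to 31.7 and from 8.21 to 9.16 CPM, most of it LUM, with COL1A2 at 0 to 4 and PDGFRB at 0 to 1 reads. The part of the lower hepatocyte markers in the results below was not tested.

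Of the 25 tested measurements, 9 fell and 3 rose, 48.0% in all against the 24.2% of all tested genes, with a median log2 fold change of -0.01 against 0.01. Those that fell were the UGT1A locus, UGT2A3, UGT2B11, UGT2B15, GSTA1, GSTA2, GSTM3, GSTM4 and MGST3, and those that rose were SULT1C2, GSTA4 and GSTZ1. The groups did not overlap for 15 of the 25, against 38.3% of all tested genes. The filter bears on this share, since UGT2B11, UGT2B15 and GSTA2 had all 3 libraries over its limit of 0.437 CPM in shcontrol alone, and SULT6B1 in shATXN7L3 alone. The groups were apart in each of those 4 genes, so the 15 of the 25 rests in part on the filter as well. A filter that required 3 libraries at a CPM of 1 left out those 4 genes, GSTO2 and SULT1A1, and then 6 fell and 3 rose. Over all genes 2084 fell and 2123 rose under that filter. The number of genes it tested is not given here, and the 24.2% does not apply to it. The 6 and 3 therefore have no background share, and they cannot show whether members passed more often than other genes. With DESeq2, 1 member rose and 8 fell, while over all genes 1405 rose and 1603 fell. Only 1 member rose also without shcontrol replicate 2 or without shATXN7L3 replicate 2, where 1698 and 1574 of all genes rose. In each case GSTA4 and GSTZ1 lost their calls. The other 11 members did not reach the filter. They were GSTA3, GSTA5, GSTM1, GSTM5, GSTT2, SULT1A2, SULT1C3, SULT1C4, SULT2B1, UGT2B10 and UGT2B17, each with between 0 and 10 reads in every library.

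**Figure D1:**
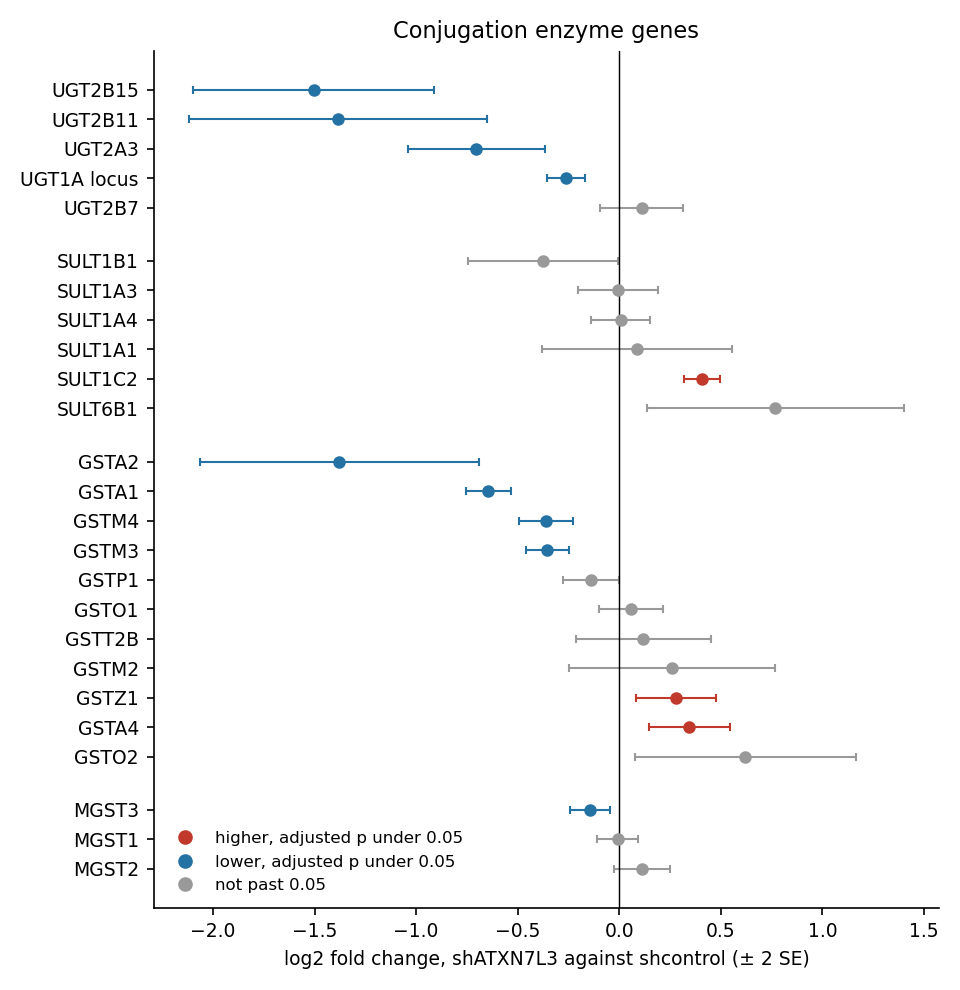
Log2 fold change of each tested conjugation enzyme gene in shATXN7L3 against shcontrol (points) with 2 standard errors to each side, grouped by family. The UGT1A locus is read from its highest row, UGT1A10. The 3 red genes and the 9 blue ones passed the threshold, and the blue ones reach from -0.14 (MGST3) to -1.50 (UGT2B15).

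The UGT1A locus (chromosome 2, 233617645 to 233773310, plus strand) was the most abundant of the families per length. Its highest row, UGT1A10, held 651, 581 and 623 CPM in shcontrol and 520, 519 and 508 CPM in shATXN7L3, so that every knockdown library lay below every control library. The log2 fold change was -0.26 ± 0.046 (SE; edgeR adjusted p = 2.51e-04), which left 83.4% of the control level. All 9 rows fell, by between 0.26 (UGT1A10) and 0.42 (UGT1A1) on the log2 scale, but they repeat 1 measurement, since 1478 exonic bases are common to all of them.

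The rows could be taken apart further. In every library the UGT1A5 row was the lowest, with 8962, 7459 and 8405 reads in shcontrol and 6965, 7218 and 6984 in shATXN7L3. The near-equal rows (the UGT1A9 row held 7 to 17 reads more than the UGT1A5 row) were read to mean that the common exons gave reads to each row, although the counting setting is not stated, and every excess value below depends on that reading. On it, what another row holds above the UGT1A5 row is reads in exons outside the common ones, less any reads in the first exon of UGT1A5 itself. These excess reads were fitted as rows of their own in place of the UGT1A rows. This step was chosen after the data were seen.

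UGT1A1, the enzyme that conjugates bilirubin, had an excess of 2571, 2034 and 2579 reads in shcontrol and of 1416, 1346 and 1417 reads in shATXN7L3. In CPM that was 115, 93.9 and 114 against 61.1, 56.0 and 59.5, and the groups were far apart. The log2 fold change of this excess was -0.87 ± 0.064 (edgeR adjusted p = 5.14e-09), which left 54.8% of the control level. It comes from the first exon (233760248 to 233761151, 904 bases) and from an alternative downstream exon of 2085 bases, of which 749 also belong to UGT1A10. The reads of these parts cannot be told apart in the counts. That downstream exon lies beyond every first exon of the locus, so its reads need not come from transcripts that start at UGT1A1. The fall of this excess is therefore not a measure of UGT1A1 transcripts alone.

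UGT1A10, known from the intestine more than from the liver, had the largest excess, 254, 238 and 255 CPM in shcontrol against 221, 220 and 217 CPM in shATXN7L3. The log2 fold change was -0.18 ± 0.043 (edgeR adjusted p = 0.00362). This excess also holds the reads of 749 bases that lie in the alternative downstream exon of UGT1A1. Part of it can be pinned to the first exon of UGT1A10 (233636454 to 233637377, 924 bases): the UGT1A10 row exceeded the UGT1A1 row by 3121 to 3205 reads in shcontrol and by 3714 to 3942 reads in shATXN7L3, and 6 end bases aside, that exon is the single stretch of the UGT1A10 row that the UGT1A1 row lacks. Each of those numbers is thus close to a lower bound on the reads of that exon. The difference also grows when reads found in the UGT1A1 row alone fall. Whether UGT1A10 itself rose or fell therefore cannot be told from these counts.

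UGT1A6, which conjugates small planar phenols, had an excess of 69.7, 70.7 and 72.0 CPM in shcontrol and of 60.6, 59.7 and 61.6 CPM in shATXN7L3. This excess fell, with a log2 fold change of -0.22 ± 0.046 and an edgeR adjusted p of 0.00115. For UGT1A8, another mainly intestinal enzyme, the excess did not pass the test, at 45.4, 44.5 and 47.7 CPM against 49.4, 50.5 and 47.3 CPM (0.10 ± 0.051, edgeR adjusted p = 0.188). Its groups overlapped. UGT1A3 and UGT1A4, which act on amines and other substrates in the liver, had small excesses of 43 to 86 and 68 to 98 reads in shcontrol and of 33 to 41 and 46 to 59 reads in shATXN7L3. Their log2 fold changes were -0.83 and -0.69 (edgeR adjusted p = 0.00684 and 0.00425). The alternative exon of UGT1A1 also overlaps the UGT1A6 row by 171 bases and the UGT1A4 row by 134. The UGT1A6 row overlaps the first exon of UGT1A3 by 414 bases and an exon of UGT1A7 by 214. These excesses can thus hold reads of their neighbours. The UGT1A6 row also holds exons of 240 and 1662 bases and overlaps exons of 2 genes on the opposite strand. Whether the counting used strand is not known, so its excess does not measure UGT1A6 transcripts alone. The excess reads of UGT1A7 (24 to 37) and UGT1A9 (7 to 17) were few and did not pass (edgeR adjusted p = 0.979 and 0.921).

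**Figure D2:**
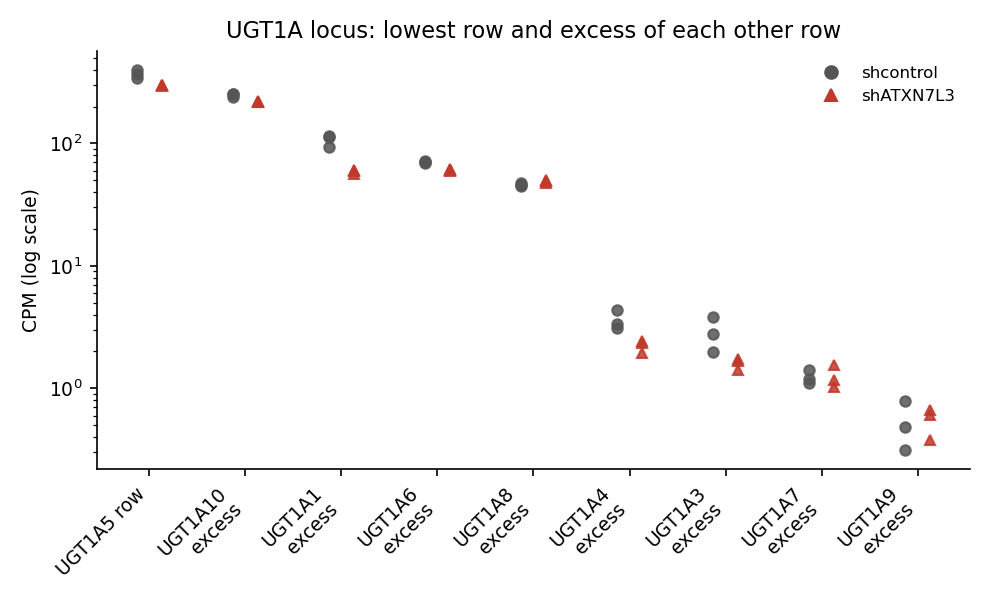
CPM (log axis) of the lowest UGT1A row, UGT1A5, and of the excess of each other UGT1A row over it, with 1 point per library. The UGT1A1 excess lies at 93.9 to 115 CPM in shcontrol (circles) and at 56.0 to 61.1 CPM in shATXN7L3 (triangles), whereas the UGT1A8 excess overlaps between the groups.

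The excesses were also compared with each other and with the UGT1A5 row within each library, where no scaling enters. Relative to the UGT1A5 row of the same library, the UGT1A1 excess was 28.7%, 27.3% and 30.7% in shcontrol and 20.3%, 18.7% and 20.3% in shATXN7L3. The UGT1A8 excess was 11.4%, 12.9% and 12.9% and then 16.4%, 16.8% and 16.2%. These are ratios to a row that does not hold the excess reads and that itself fell (-0.32), not shares of the locus. The ratio for UGT1A1 was lower and that for UGT1A8 higher in every knockdown library, while the UGT1A8 excess itself did not pass its test and its groups overlapped. The ratio of the UGT1A1 to the UGT1A8 excess was 2.34 ± 0.212 in shcontrol and 1.20 ± 0.0806 in shATXN7L3 (SD, n = 3 each), a difference of -0.96 on the log2 scale. A two-sided exact permutation test over libraries, which cannot go below 0.1 with 3 against 3, gave p = 0.1 for 8 of the 10 ratios computed among the 4 larger excesses and the UGT1A5 row (0.125 after Benjamini-Hochberg adjustment over the 10). The exceptions were UGT1A6 to the UGT1A5 row (exact p = 0.3) and UGT1A6 to UGT1A10 (exact p = 0.4), whose groups overlapped.

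**Figure D3:**
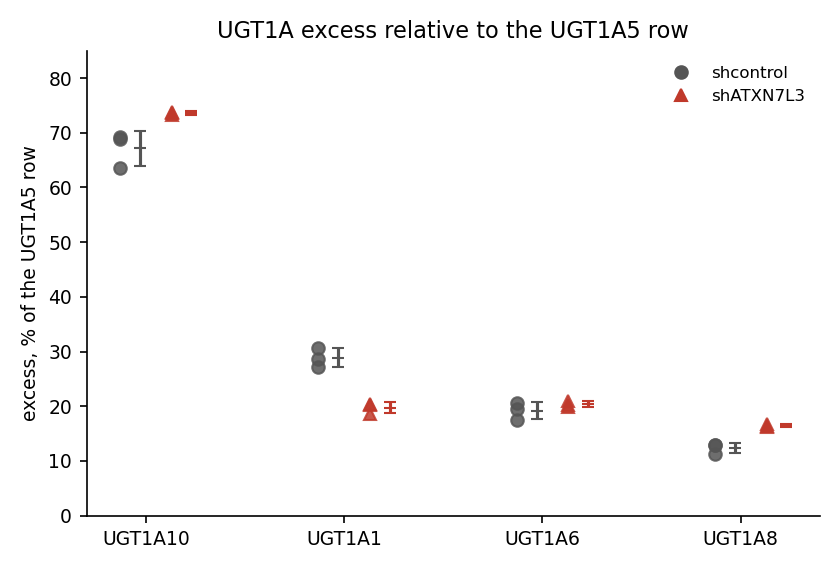
Excess reads of 4 UGT1A rows as a percentage of the UGT1A5 row of the same library, with 1 point per library and the mean ± SD (n = 3) beside it. UGT1A1 goes from 27.3% to 30.7% in shcontrol down to 18.7% to 20.3% in shATXN7L3, UGT1A8 goes from 11.4% to 12.9% up to 16.2% to 16.8%, and UGT1A6 overlaps. The UGT1A5 row itself was lower in shATXN7L3, and the UGT1A8 excess on its own did not pass the test.

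The second UGT family lies in a cluster on chromosome 4 and was weakly expressed. Of its 4 tested genes 3 fell and 0 rose, but UGT2B15 and UGT2B11 were tested because shcontrol, where they were higher, passed the filter, and a count that includes them says little. With at least 3 libraries required at a CPM of 1, neither was tested, and of the remaining pair UGT2A3 fell (edgeR adjusted p = 0.0047) and UGT2B7 did not pass (0.48). UGT2B15, which conjugates androgens, had 27, 20 and 23 reads in shcontrol and 7, 11 and 8 in shATXN7L3, or 1.20, 0.921 and 1.01 against 0.301, 0.456 and 0.335 CPM. The groups were well apart, and the change came to -1.50 ± 0.30 on the log2 scale (edgeR adjusted p = 8.38e-04). UGT2B11 (14, 16 and 27 reads against 4, 9 and 10) fell by 1.38 ± 0.37 (edgeR adjusted p = 0.00883), and its call ended without shcontrol replicate 3 (0.0579) or shATXN7L3 replicate 1 (0.0585). UGT2A3, an enzyme of liver and gut, had 73, 72 and 99 reads against 61, 45 and 53 and fell by 0.70 ± 0.17 (edgeR adjusted p = 0.00424). In the same cluster, UGT2B7, a main enzyme for opioids and steroids, stood at 8.22, 8.19 and 9.89 CPM in shcontrol and at 9.03, 10.7 and 8.70 CPM in shATXN7L3, with overlapping groups (0.11 ± 0.10, edgeR adjusted p = 0.485). Of the 50-base windows of UGT2B15, 27.5% also occur in transcripts of UGT2B17 (0 to 2 reads per library), and of those of UGT2B11, 36.4% occur in transcripts of other genes, so part of their reads cannot be placed for certain. UGT2B11 also overlaps an exon of a gene on the opposite strand, and whether the counting used strand is not known.

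Among the sulfotransferases, 1 of 6 tested genes rose and 0 fell. SULT1C2 (chromosome 2, 108288639 to 108309915), an enzyme known from fetal tissues, stomach and kidney, was by far the most abundant of them, with 219, 231 and 214 CPM in shcontrol and 297, 282 and 302 CPM in shATXN7L3. Every knockdown library exceeded every control library. Its log2 fold change was 0.41 ± 0.045 (edgeR adjusted p = 1.55e-06), which brought it to 133% of the control level, and among the 25 measurements it had the smallest p of those that rose. Its log2 fold change stayed between 0.38 and 0.45 under the alternatives.

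SULT1A3 and SULT1A4, near-identical copies that sulfate dopamine and other catecholamines, were measured at 10.4, 9.11 and 9.32 CPM (SULT1A3) and 14.9, 14.2 and 14.1 CPM (SULT1A4) in shcontrol. In shATXN7L3 they had 8.34, 10.8 and 9.499 CPM and 15.1, 13.6 and 14.8 CPM. The groups overlapped in both genes, and neither passed (edgeR adjusted p = 0.971 and 0.953). Of the 50-base windows of SULT1A4, 96.8% occur in SULT1A3, and both overlap a readthrough gene on the same strand, so the split between them is uncertain. SULT1B1, which acts on thyroid hormones, had 3.38, 2.67 and 4.83 CPM in shcontrol and 2.54, 3.19 and 2.68 CPM in shATXN7L3 and did not pass (-0.37 ± 0.18, edgeR adjusted p = 0.158), although it did so without shcontrol replicate 2 (0.0411). SULT1A1, the main phenol sulfotransferase of normal liver, was low in all libraries, at 20 to 24 reads. SULT6B1 had 12, 7 and 9 reads in shcontrol and 14, 18 and 19 in shATXN7L3 (0.77 ± 0.32, edgeR adjusted p = 0.0866).

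**Figure D4:**
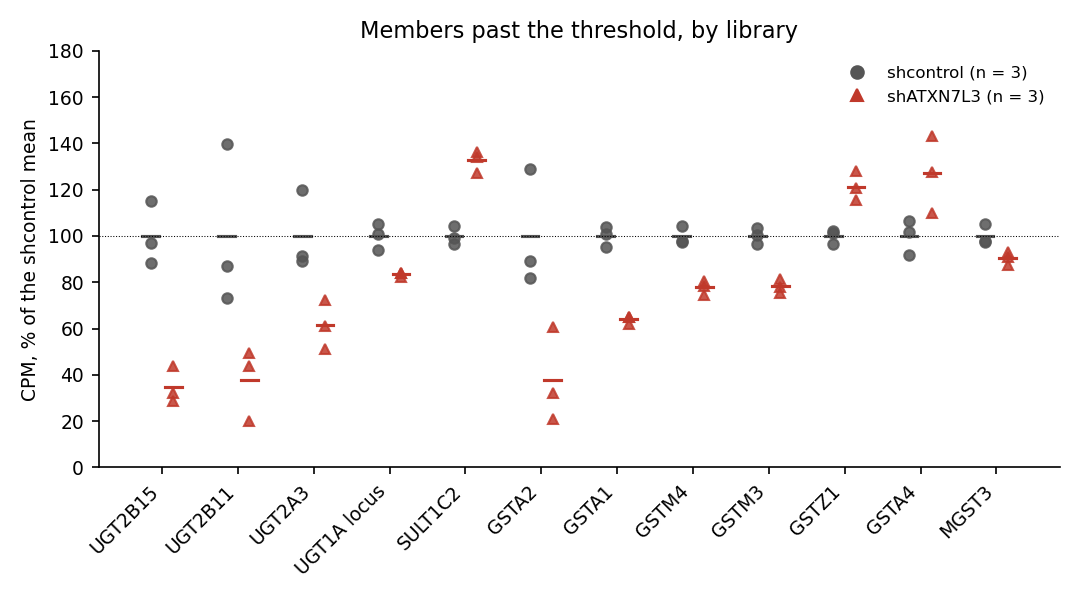
CPM of the 12 measurements past the threshold in every library, as a percentage of the shcontrol mean of the same gene (circles shcontrol, triangles shATXN7L3, bars group means). The UGT2B15, UGT2B11 and GSTA2 points are spread widely and rest on few reads, whereas GSTA1 and SULT1C2 are tight and rest on 620 to 7207 reads.

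The alpha class of cytosolic GSTs, the class that marks hepatocytes, moved in both directions: of 3 tested genes, 2 fell and 1 rose, with GSTA2 tested because shcontrol passed the filter. GSTA1 (chromosome 6, 52791664 to 52803910, minus strand) had 42.2, 43.5 and 39.9 CPM in shcontrol and 27.2, 27.2 and 26.0 CPM in shATXN7L3. The log2 fold change was -0.64 ± 0.055 (edgeR adjusted p = 4.69e-08), leaving 63.9% of the control level, which was the smallest p of the 25 measurements. GSTA2, its neighbour and closest relative, had 19, 29 and 21 reads in shcontrol and 5, 8 and 15 in shATXN7L3 and fell by 1.38 ± 0.34 (edgeR adjusted p = 0.00563). Of the windows of GSTA2, 18.4% occur in GSTA1, and of those of GSTA1, 21.7% occur in GSTA2. GSTA1 had 620 to 950 reads per library, so part of the few GSTA2 reads cannot be placed for certain. The falls of GSTA1 and GSTA2 may therefore not be separate. GSTA4, which handles the lipid peroxidation product hydroxynonenal, had 8.67, 7.83 and 9.05 CPM in shcontrol and 10.9, 12.2 and 9.37 CPM in shATXN7L3. It rose by 0.34 ± 0.10 (edgeR adjusted p = 0.0162), a call that ended with DESeq2 (adjusted p = 0.0514) and without shcontrol replicate 2 (0.0824) or shATXN7L3 replicate 2 (0.119).

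The 3 alpha-class genes that passed lie in 1 cluster on chromosome 6, and their promoters are shown because members of this cluster moved in opposite directions. The lines give the 200 bases before the RefSeq start of transcription (GRCh38.p14, minus strand), with matches to the motifs listed after them in capitals.
GSTA1: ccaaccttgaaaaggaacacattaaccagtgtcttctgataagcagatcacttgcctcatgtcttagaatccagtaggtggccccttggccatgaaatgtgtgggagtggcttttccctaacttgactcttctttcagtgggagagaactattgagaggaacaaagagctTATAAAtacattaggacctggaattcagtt
GSTA2: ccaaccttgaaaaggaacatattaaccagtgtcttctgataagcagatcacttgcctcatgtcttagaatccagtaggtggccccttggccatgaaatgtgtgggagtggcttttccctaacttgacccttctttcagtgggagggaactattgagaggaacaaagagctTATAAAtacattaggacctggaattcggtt
GSTA4: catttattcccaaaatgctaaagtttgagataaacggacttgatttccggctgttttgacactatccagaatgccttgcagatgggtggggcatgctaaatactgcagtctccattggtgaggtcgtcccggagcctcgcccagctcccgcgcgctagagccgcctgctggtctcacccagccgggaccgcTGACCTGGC
They lie at chr6:52803817-52804016, chr6:52763476-52763675 and chr6:52995285-52995484. The windows of GSTA1 and GSTA2 were 98.0% identical, and both held a TATA box core (TATAAA) 30 bases before the start. In the GSTA4 window the match was to the core of an antioxidant response element (TGACNNNGC), 9 bases before the start. Over the 250 bases before all 35116 RefSeq starts, searched on both strands, 10.7% held TATAAA, 10.9% TGACNNNGC and 32.2% GCGTG, the core of the xenobiotic response element. Of the 41 windows that RefSeq gives for 37 of the 44 members, 10, 10 and 12 held them. Each motif was searched on its own, also where matches of different motifs overlap, and a match describes these letters only.

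In the mu class, on chromosome 1, 2 of 3 tested genes fell. GSTM3, known from brain, testis and many tumours, had 43.2, 41.5 and 44.6 CPM in shcontrol and 35.1, 32.5 and 33.6 CPM in shATXN7L3, a change of -0.35 ± 0.054 on the log2 scale (edgeR adjusted p = 6.15e-05). GSTM4 had 20.7, 19.4 and 19.3 CPM against 14.8, 15.9 and 15.5 CPM (-0.36 ± 0.067, edgeR adjusted p = 4.33e-04). They stood at 78.2% and 77.8% of the control level, and in both genes the groups were apart. GSTM2, with 15 to 28 reads per library, did not pass (edgeR adjusted p = 0.514). GSTM2 and GSTM4 have exonic bases in common, so their reads are not fully separate, and GSTM3 overlaps an exon on the opposite strand. GSTM1 had 1 to 4 reads, and 49.7% of its windows occur in other genes.

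Of the 5 tested genes of the other cytosolic classes, 1 rose and 0 fell. GSTP1, the pi-class enzyme that many tumours carry at high level, had 17.3, 17.1 and 16.0 CPM in shcontrol and 14.9, 15.1 and 15.8 CPM in shATXN7L3. The groups were just apart, but the test was not passed (-0.14 ± 0.068, edgeR adjusted p = 0.156), with a range of 82.6% to 99.8% of control at 2 SE. GSTZ1, the maleylacetoacetate isomerase of tyrosine breakdown, had 6.18, 6.21 and 5.89 CPM against 7.36, 7.80 and 7.03 CPM and rose by 0.28 ± 0.098 (edgeR adjusted p = 0.0444). That call was fragile: it ended under 10 of 14 alternatives, among them DESeq2 (adjusted p = 0.195), the replicate block (0.0558) and the removal of any single library (0.0595 to 0.154). GSTZ1 also overlaps exons of POMT2 on the opposite strand. GSTO1, an omega-class enzyme that reduces dehydroascorbate, had 12.1, 12.3 and 11.2 CPM against 12.2, 13.1 and 11.8 CPM (edgeR adjusted p = 0.657). GSTO2 had 13, 17 and 20 reads against 32, 31 and 19 (0.62 ± 0.27, edgeR adjusted p = 0.11) and passed without shATXN7L3 replicate 3 (0.0463). GSTT2B had 40 to 55 reads per library (edgeR adjusted p = 0.665), and 90.9% of its windows occur in GSTT2.

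The microsomal GSTs are small membrane proteins of another fold, and of 3 tested genes 1 fell and 0 rose. MGST1, which protects the endoplasmic reticulum and the outer mitochondrial membrane from lipid peroxides, was abundant, with 510.2, 449.7 and 447.6 CPM in shcontrol and 476.2, 469.1 and 454.2 CPM in shATXN7L3, and the groups overlapped. Its log2 fold change was -0.01 ± 0.050 (edgeR adjusted p = 0.928), with a range of 92.8% to 106% of control at 2 SE, and its sign turned with scaling by library size alone. MGST3 had 70.8, 65.7 and 65.8 CPM against 61.3, 62.8 and 58.9 CPM and fell by 0.14 ± 0.050 (edgeR adjusted p = 0.0393). The call ended under 8 of 14 alternatives, with adjusted p up to 0.193, among them DESeq2 (0.0782), library size alone (0.15) and no filter (0.0567). The libraries whose removal ended it were shcontrol replicates 1 (0.11) and 2 (0.0546) and shATXN7L3 replicates 1 (0.109), 2 (0.0619) and 3 (0.193). MGST2, which takes part in leukotriene C synthesis, had 14.2, 15.01 and 14.2 CPM against 16.0, 15.7 and 15.2 CPM (0.11 ± 0.069, edgeR adjusted p = 0.26).

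Per length, on the scale of CPM per kilobase of exon, the UGT1A locus (196 ± 11.2 in shcontrol, 163 ± 2.08 in shATXN7L3) led in both groups, followed by MGST1 (63.1 ± 4.78 and 62.7 ± 1.51). In shcontrol GSTA1 came next (41.1 ± 1.77), before SULT1C2 (26.3 ± 1.05). In shATXN7L3 these neighbours had changed places, with SULT1C2 at 34.9 ± 1.24 and GSTA1 at 26.3 ± 0.711, and in neither group did their libraries overlap. Below them, GSTM3 (9.07 ± 0.320), GSTP1 (8.78 ± 0.376) and MGST3 (8.03 ± 0.347) formed a range in shcontrol in which each overlapped the next. The exonic length counts the bases of all annotated transcripts, so the levels of genes with long rare exons are understated. The UGT1A value is that of the UGT1A10 row, and it depends on the row chosen. The UGT1A6 row, the lowest of the locus on this scale, stood at 85.1 ± 5.21 in shcontrol and 69.0 ± 0.657 in shATXN7L3.

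The donors of the transferred groups were followed with a list of 30 genes for UDP-glucuronic acid, PAPS and glutathione, of which 29 were tested. Of these 5 rose and 3 fell (27.6% called against 24.2% of all tested genes, median log2 fold change 0.03 against 0.01). GCLC, the catalytic subunit of the enzyme that limits glutathione synthesis, had 183, 183 and 184 CPM in shcontrol and 134, 134 and 132 CPM in shATXN7L3 (-0.46 ± 0.042, edgeR adjusted p = 9.01e-08). PGD, an NADPH source of the pentose phosphate pathway, went from 1050 ± 5.59 to 821 ± 17.6 CPM (edgeR adjusted p = 2.22e-06). IMPAD1 was the third that fell (-0.21), while BPNT1, also listed for clearing products of the donors, did not pass (0.04 ± 0.066, edgeR adjusted p = 0.695). CTH, which makes cysteine, stood at 2.31, 3.08 and 4.13 CPM in shcontrol and at 5.38, 5.93 and 6.61 CPM in shATXN7L3 and rose (0.91 ± 0.16, edgeR adjusted p = 2.39e-04). PAPSS2, which makes PAPS, rose as well, with 35.0 ± 1.25 CPM against 42.7 ± 1.18 CPM (edgeR adjusted p = 4.18e-04). The others that rose, all of glutathione turnover, were CHAC1 (0.58), ANPEP (0.28) and OPLAH (0.25). UGDH, which makes UDP-glucuronic acid, stood at 780 ± 26.1 and 779 ± 2.52 CPM (edgeR adjusted p = 0.982). Of the list 9 rose when only library size was used for scaling, and 3 did with DESeq2 or without shATXN7L3 replicate 2 or 3.

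Other conjugating and deconjugating enzymes were split. Of 19 tested genes of a list of 32, 5 rose and 6 fell (57.9% called against 24.2%, median -0.04). BAAT, which joins bile acids to glycine or taurine, had 40.3, 42.3 and 41.0 CPM in shcontrol and 22.02, 21.9 and 20.6 CPM in shATXN7L3 (-0.94 ± 0.056, edgeR adjusted p = 2.15e-10). EPHX1, the microsomal epoxide hydrolase, went from 393 ± 21.2 to 253 ± 1.12 CPM (-0.64 ± 0.045, edgeR adjusted p = 2.75e-09), and the lysosomal sulfatase ARSB from 15.7 ± 1.33 to 12.1 ± 0.515 CPM (edgeR adjusted p = 0.00146). STS, GAMT and GSTK1 fell as well (-0.35, -0.83 and -0.16). TPMT, which methylates thiopurines, rose from 15.1 ± 0.402 to 19.7 ± 0.124 CPM (0.38 ± 0.064, edgeR adjusted p = 1.72e-04), and so did the N-acetyltransferase NAT1 (0.44), the histamine methyltransferase HNMT (0.36), TPST2 (0.33) and SLC27A5 (0.32). DESeq2 left 3 of the list higher, as did leaving out shcontrol replicate 2 or 3 or shATXN7L3 replicate 2.

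The regulator list held transcription factors known to act on UGT, SULT or GST genes, and partners of these factors such as KEAP1. Of 26 tested regulators, 8 fell and 0 rose (30.8% called against 24.2%, median -0.13). With scaling by library size alone or without shcontrol replicate 2, 1 rose. At an unadjusted edgeR p under 0.05, 13 of the 26 were lower and 1, MAFK, was higher (0.15 ± 0.064), which together is 53.8% against 34.8% of all tested genes. At that cut 3029 of the 17935 tested genes were lower and 3215 higher. The cofactor list had 4 lower and 8 higher there, and the other conjugation list 6 lower and 6 higher. DESeq2 and limma voom also called 0 higher. MAFK belongs to the list, and only its naming here came after its value was seen. NFE2L2, the factor that acts through antioxidant response elements, had 92.0, 89.9 and 95.1 CPM in shcontrol and 72.1, 73.6 and 75.0 CPM in shATXN7L3 (-0.33 ± 0.046, edgeR adjusted p = 2.22e-05). The nuclear receptor HNF4A had 44.7, 40.9 and 45.04 CPM against 33.3, 33.4 and 33.6 CPM, CEBPA 37.0, 31.0 and 32.5 against 23.4, 26.5 and 24.3 CPM, and the xenobiotic receptor NR1I2 8.0, 6.12 and 7.69 against 5.20, 4.65 and 4.48 CPM. In each of these the groups were apart (edgeR adjusted p = 2.92e-05, 8.80e-05 and 7.80e-04). FOXA3, NR1H3, NR3C1 and NFE2L1 were the others that fell (-0.71, -0.30, -0.18 and -0.18). AHR (-0.12, edgeR adjusted p = 0.111) and KEAP1 (-0.19, edgeR adjusted p = 0.217) did not pass.

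**Figure D5:**
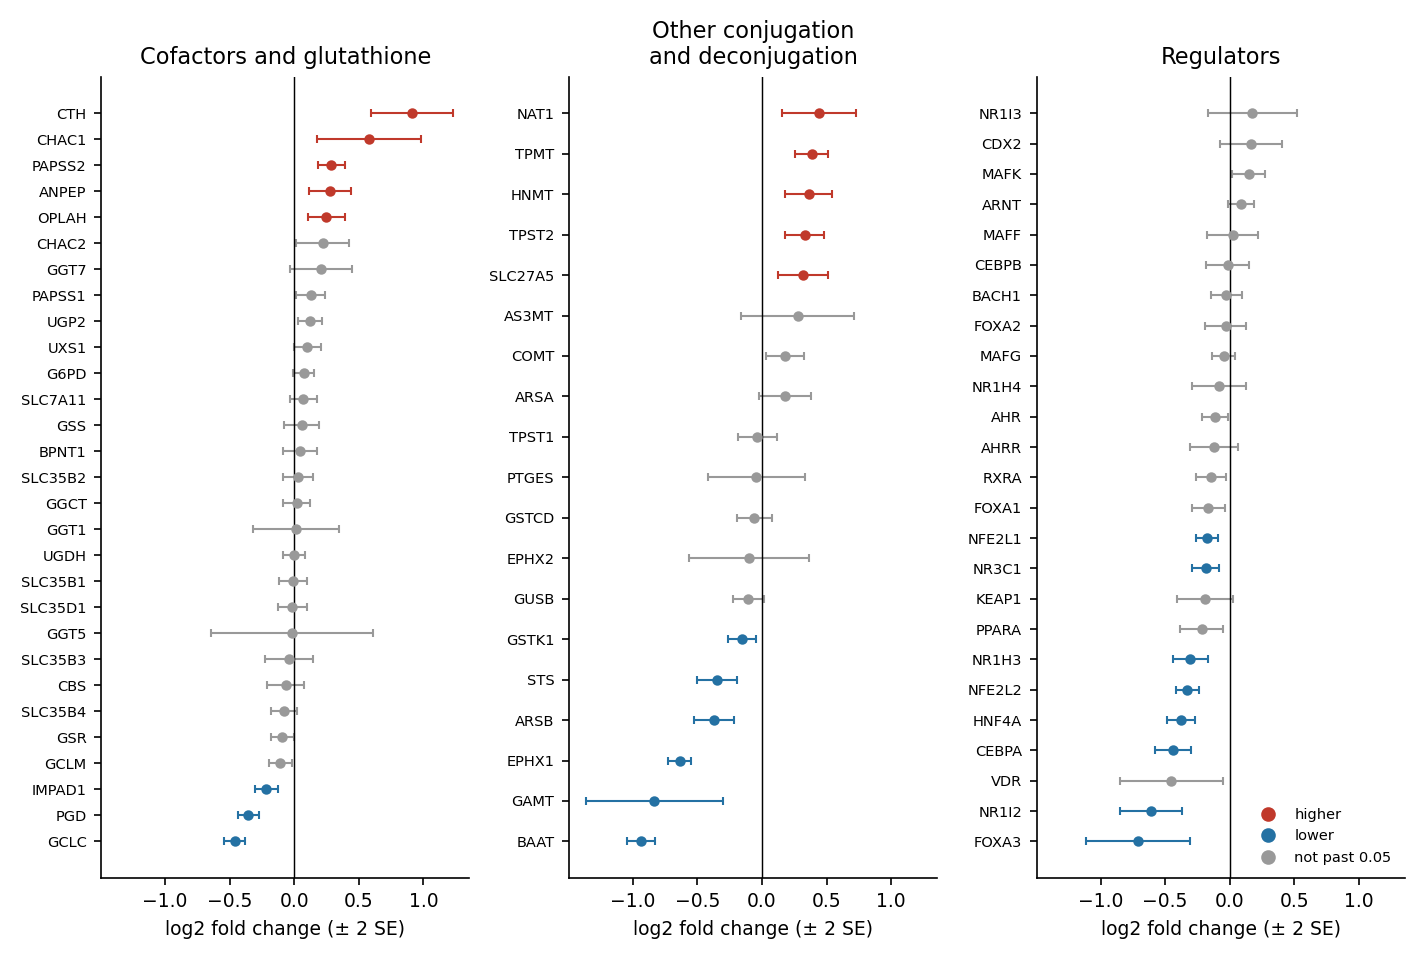
Log2 fold change with 2 standard errors to each side for the tested genes of the lists on cofactors and glutathione (29), other conjugation and deconjugation (19) and regulators (25 of 26), shATXN7L3 against shcontrol. Red genes rose and blue genes fell past the threshold, and the regulator panel holds 8 blue genes and 0 red ones.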

How the data were processed

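The authors deposited raw read counts per gene symbol for 6 libraries of poly-A RNA. Per the submitters' processing notes, the tools were Trimmomatic 0.36, STAR 2.5.3a, Subread 1.5.1 (featureCounts) and edgeR 3.12.1 on GRCh38. Strand and multiple-match settings: not given in the sources used here. Members and lists were chosen with earlier results of these data known. Genes were filtered with filterByExpr (minimum count 10, total 15), scaled by TMM and compared with the quasi-likelihood test of edgeR 4.0.16 (R 4.3.3, group as the only term, Benjamini-Hochberg over all 17935 genes). The standard error (SE) is the log2 fold change divided by the square root of F, an approximation. Counting precision is limited by 22376867 to 23915783 counts per library. Libraries of a group differed by more than sampling noise, and those of shcontrol by the most. Chi-square per gene, where 1 is noise, was 3.60 to 6.52 in shcontrol and 1.59 to 2.18 in shATXN7L3. The procedure was tested on simulated data. Named were all tested members and, from each list, up to 4 called genes with the smallest p, others being added after their values were seen. Alternatives were DESeq2 1.42.0, limma 3.58.1 voom, 3 scalings, 2 filters, a replicate block, each library left out, and for the members the lowest UGT1A row and the removal of members that overlap another gene on the same strand. Sequences came from GENCODE 29 and RefSeq (GRCh38.p14). From the regulator list 1 gene is counted but its values are not reported here.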

Additional observations from a re-analysis of the deposited data

How the results depend on the processing

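The members that fell numbered 6 to 9 and those that rose 1 to 3 under all alternatives run, with 9 and 3 as reported. The 6 came from the filter at a CPM of 1, which tested fewer genes. With DESeq2, 1405 genes rose instead of 2182, and 1 member, 3 cofactor genes and 3 genes of the other conjugation list rose. Of that last list 4 genes fell instead of 6. With scaling by library size alone, 9 cofactor genes and 1 regulator rose. Leaving out each library gave 1 to 3 members, 3 to 6 cofactor genes, 3 to 5 genes of the other conjugation list and 0 to 1 regulators that rose. Over the same removals 3 to 4 cofactor genes, 4 to 7 genes of the other conjugation list and 7 to 11 regulators fell. Signs turned only for values close to 0: with library size alone MGST1 went to 0.036 and SULT1A3 to 0.036, with limma voom the UGT1A7 excess to -0.0040, and over the libraries left out MGST1 ran from -0.045 to 0.057, SULT1A3 from -0.10 to 0.081, SULT1A4 from -0.022 to 0.055, the UGT1A7 excess from -0.17 to 0.13 and the UGT1A9 excess from -0.20 to 0.46. Causes were not tested. Pairing was checked on log2 CPM after the group mean of each gene was taken off. What remained correlated at -0.016, 0.005 and 0.044 between same-numbered libraries of the groups. Between differently numbered libraries it ran from -0.072 to 0.067, so no pairing by replicate number was seen. With the number as a block 2 members rose and 9 fell, since the call of GSTZ1 ended, and 2188 genes rose and 2140 fell. Depth limits UGT2B11, UGT2B15, GSTA2, SULT6B1, GSTM2 and SULT1A1, which had under 30 reads in every library. It also limits GSTO2, with 13 to 32 reads.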

Other observations

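The families also have pseudogenes in the table, 17 in all, which the choice of members leaves out. Of these, 4 had enough reads to be tested and 0 passed (GSTM3P1, edgeR adjusted p = 0.198; SULT1C2P1, 0.597; UGT2B26P, 0.67; UGT1A2P, 0.89). SULT1C2P1, next to SULT1C2, had 9, 14 and 13 reads in shcontrol and 16, 16 and 14 in shATXN7L3, against 4866 to 7207 reads of SULT1C2 itself. GSTM3P1 lies on chromosome 20, away from GSTM3, and had 23, 37 and 37 reads in shcontrol and 27, 27 and 22 in shATXN7L3.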
